A study of Drosophila melanogaster with 4 samples.

Results

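The X chromosome of *Drosophila melanogaster* carried 790 of the 4311 regions in which the authors found H3K36me2 enriched in their combined list. Members were chosen by sequence name alone, as every region placed on X. In the lists of the single ChIP libraries X held 760 of 4133 regions in replicate 1 and 792 of 4231 regions in replicate 2. The chromatin came from wild-type embryos of the Oregon-R strain, aged 14 to 16 hours and fixed in 1.8% formaldehyde, and all samples share that genotype, strain and stage. H3K36me2 was pulled down with an antibody that the labels call H3K36me2 W and sequenced in 2 ChIP libraries, with 2 input libraries that served the region calling. The labels do not give the sex of the embryos. They also do not say whether the replicates came from separate collections, so their spread may be technical. Whole embryos were used, so fewer cells with the mark and less mark per cell cannot be told apart.

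Methylation of lysine 36 of histone H3 marks transcribed chromatin. In *Drosophila* the dimethyl form is laid down by enzymes such as Mes-4 and Ash1, while Set2 adds the third methyl group over the bodies of active genes. In males the X is transcribed at a raised level by the MSL complex, which reads methylated lysine 36 on active genes and acetylates histone H4. The assembled X runs from the telomeric tip at its start to the pericentromeric base at its end, and the files give its length as 22422827 bp on FlyBase release 5. Since neither genes nor bases of that release were used here, places are named by position on X and no gene or sequence is given for them.

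In the combined list H3K36me2 regions lay along the whole assembled X, the first 1353 bp from its start and the last 3049 bp from its end. That first region, X 1354 to 3008, was found in neither replicate. H3K36me2 regions covered 22.2% of X in replicate 1 and 21.5% in replicate 2, a mean of 21.8% ± 0.457 (SD, n = 2). In the combined list they covered 23.4%. The median region was 4905 bp wide in replicate 1, 4485 bp in replicate 2 and 4974 bp in the combined list. The lower and upper quartiles of the widths were 2865 and 8163 bp in replicate 1 and 2809 and 7783 bp in replicate 2. Most X regions were therefore a few kilobases wide, and the covered bases were shared among many of them. Regions of 10 kb or more numbered 137 in replicate 1 and 123 in replicate 2, and they held 43.2% and 38.9% of the covered bases of X in those lists.

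Most gaps between X regions were short, and most of the empty length lay in gaps of more than 20 kb. The median gap between neighbouring X regions was 4242 bp in replicate 1 and 3716 bp in replicate 2, a mean of 3979 bp ± 372 (SD, n = 2). Gaps of up to 5 kb made up 53.0% of the X gaps in replicate 1 and 55.2% in replicate 2. These short gaps held little of the chromosome. Gaps under 1 kb numbered 209 and 220 and took up 0.412% and 0.424% of X, and gaps of 1 to 5 kb took up 2.12% and 2.41%. At the other end, 54 gaps in replicate 1 and 55 in replicate 2 were longer than 100 kb, and together they spanned 41.3% and 41.4% of the chromosome. Gaps of 20 to 100 kb, 131 and 133 in number, spanned a further 26.0% and 26.3%, and the 171 and 166 gaps of 5 to 20 kb spanned 7.99% and 7.90%.

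The median gap was shorter on X than on every large autosomal arm in each replicate. It was 4242 bp on X in replicate 1, against 4913 to 5898 bp on 2L, 2R, 3L and 3R. In replicate 2 it was 3716 bp on X, against 4658 to 5663 bp on these arms. X was also the lowest of the 5 arms in the combined list, at 4053 bp against 4612 to 6003 bp. X was not the most closely packed arm by other measures. Its mean gap was 23017 bp in replicate 1 and 22243 bp in replicate 2, against 19690 and 19516 bp on 2R, and it held 33.9 and 35.3 regions per Mb, against 37.4 and 38.1 on 2R. The median gap of X minus that of the 4 autosomal arms pooled was -1101 bp in replicate 1 and -1383 bp in replicate 2. An exact sign-flip permutation test over the replicates (two-sided) gave p = 0.5, the smallest that 2 replicates allow, so no comparison of X with the autosomal arms could pass a threshold.

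**Figure D1:**
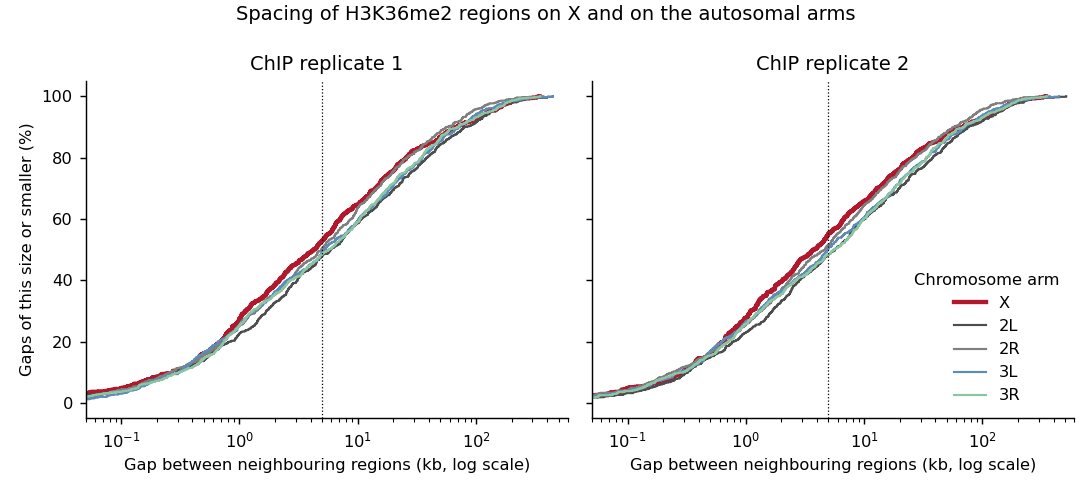
Cumulative share of the gaps between neighbouring regions (y axis, %) up to a given gap size (x axis, kb, log scale), for X and for each autosomal arm, in each ChIP replicate. The dotted line marks 5 kb, where the curve of X stands above the others at 53.0% in replicate 1 and 55.2% in replicate 2.

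Relative to its mean, the gap size also varied more on X than on each autosomal arm. The coefficient of variation of the gaps, which is their SD divided by their mean, was 2.07 on X in replicate 1 and 2.10 in replicate 2, against 1.90 to 1.96 and 1.91 to 1.99 on the autosomal arms. Gaps of intermediate size were a smaller share on X. Those of 20 to 100 kb made up 17.3% and 16.8% of the X gaps in the replicates, against 21.8% and 21.2% of the gaps on the autosomal arms pooled. The share of length in gaps over 100 kb, 41.3% and 41.4% on X, stood within the range of the single autosomal arms, which was 25.3% to 41.7% in replicate 1 and 26.3% to 42.2% in replicate 2.

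Wide regions held a smaller share of the marked bases on X than on each autosomal arm. Regions of 10 kb or more held 43.2% of the covered bases of X in replicate 1, against 44.1% to 51.6% on the autosomal arms. In replicate 2 they held 38.9% on X, against 41.2% to 50.6% on the autosomal arms. The arm nearest to X was 3L in both replicates, and its distance from X was smaller than the difference between the replicates on X. The classes of 2.5 to 5 kb and of 5 to 10 kb took in 31.7% and 31.3% of the X regions in replicate 1, against 30.2% and 29.6% of the regions on the autosomal arms. In replicate 2 those shares were 34.5% and 29.3% on X, against 30.8% and 28.5%.

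**Figure D2:**
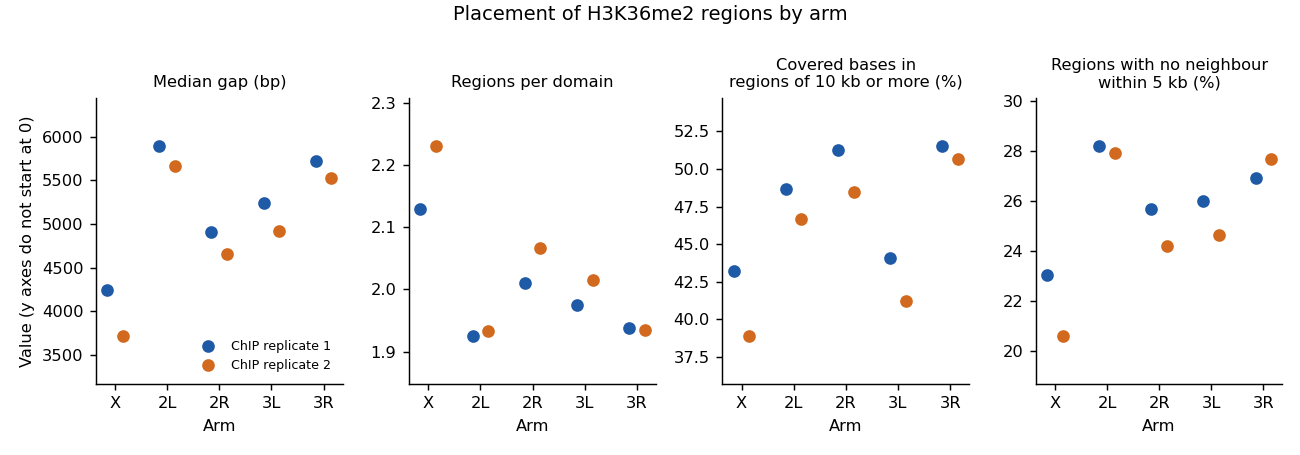
Values of X and of the autosomal arms in each ChIP replicate (points) for the median gap, the number of regions per domain, the share of covered bases in regions of 10 kb or more and the share of regions with no neighbour within 5 kb. X was the lowest of the 5 arms for the median gap, the wide regions and the regions without a neighbour, and the highest for regions per domain, within each replicate.

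Neighbouring regions on X were joined into domains where the gap between them was at most 5 kb. Replicate 1 gave 357 X domains and replicate 2 gave 355, with 2.13 and 2.23 regions per domain. Every autosomal arm had fewer regions per domain, at 1.92 to 2.01 in replicate 1 and 1.93 to 2.07 in replicate 2. The mean of X minus the autosomal arms pooled was 0.205 ± 0.0549 regions per domain (SD, n = 2), with the same exact permutation p of 0.5. Regions with no neighbour within 5 kb made up 23.0% and 20.6% of X regions, against 25.7% to 28.2% and 24.2% to 27.9% on the autosomal arms. Domains of 5 or more regions took in 23.2% of X regions in replicate 1, against 16.7% to 22.9% on the autosomal arms, and 25.9% in replicate 2, against 16.1% to 22.1%.

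In the combined list the 790 X regions formed 366 domains. Of these, 176 held a single region, 85 held 2 regions, 76 held 3 or 4, and 29 held 5 or more. The median length was 4990 bp for single regions and 54193 bp for domains of 5 or more. Regions inside the large domains were close in width to the solitary ones. Their median width was 5338 bp in replicate 1 and 4671 bp in replicate 2, against 4901 and 4711 bp for solitary regions. Median scores, on the authors' scale, were 1.43 and 1.42 in the large domains, against 1.32 and 1.29 for solitary regions. In the combined list the median score was 1.37 against 1.18, and the median width 5527 against 4990 bp. The quartile ranges of the scores overlapped in each list.

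The longest X domain, X 15591474 to 15697566, spanned 106093 bp and held 9 regions in the combined list. It held 10 regions in replicate 1 and 9 in replicate 2, which covered 92.2% and 92.0% of it. Its widest region, of 27837 bp in the combined list, scored 2.26 in replicate 1 and 2.21 in replicate 2. Near the distal end of the same domain a region of about 2 kb scored only 0.516 and 0.666. Regions of high and low score thus stood in 1 domain, and did so in both replicates.

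The next domain, X 19503526 to 19603796, spanned 100271 bp and was covered to 92.5% in replicate 1 and 90.9% in replicate 2. Each replicate divided it into 7 regions, while the combined list divided it into 6. Its central region of about 24 kb scored 2.41 in replicate 1 and 2.28 in replicate 2. The flanking region of about 3 kb next to it scored 0.965 and 1.15.

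X 1744672 to 1825164 was the densest of the 5 longest domains in replicate 1, with 93.6% of its 80493 bp covered, and replicate 2 covered 92.0% of it. The combined list drew its middle as a region of 39707 bp, the second widest of X, where both replicates had a pair of regions with a short gap between them. The pair measured 19896 and 19679 bp in replicate 1 and 19530 and 19551 bp in replicate 2. Its most proximal region had the highest score, 2.56 in replicate 1 and 2.48 in replicate 2. Its most distal region scored 0.727 and 0.935.

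The other domains among the 5 longest were less continuous. X 6114616 to 6195670, of 81055 bp, was covered to 81.2% in replicate 1 and 75.1% in replicate 2 and fell into 2 domains in each. X 7780894 to 7859736, of 78843 bp, was covered to 84.9% and 84.6% and likewise fell into 2 domains in each replicate. The combined list bridged that break in the domain with 2 regions, of 1113 and 2657 bp, that neither replicate held. Their scores were 0.409 and 0.366.

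**Figure D3:**
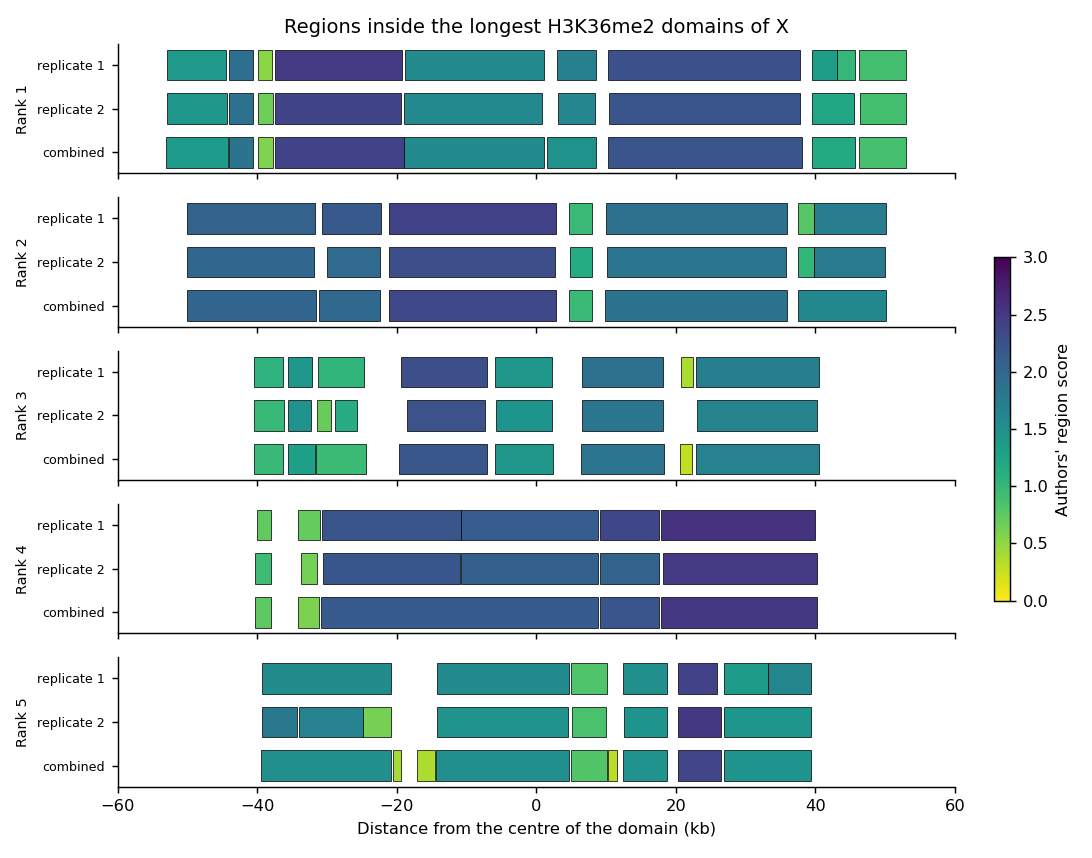
Regions inside the 5 longest X domains of the combined list, drawn to scale by distance from the centre of the domain (x axis, kb), with a row for each ChIP replicate and for the combined list and with colour giving the authors' score. Most regions recur in both replicates with a similar score, while the break left of the centre of the domain at rank 5 is bridged by narrow regions of low score in the combined list.

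Close neighbours on X were not alike in score, and those 1 to 100 kb apart were only weakly so. Across 210 neighbouring pairs less than 1 kb apart in replicate 1, the Pearson correlation of their scores was 0.00266. In replicate 2 the value was 0.0182 across 220 pairs. In the classes of 1 to 5, 5 to 20 and 20 to 100 kb the correlation was 0.102 to 0.131 in replicate 1. In replicate 2 it was 0.0582 to 0.151. For neighbours more than 100 kb apart it was -0.367 in replicate 1, across 54 pairs, and -0.236 in replicate 2, across 55 pairs. The Spearman correlation of those distant pairs was -0.369 in replicate 1 and -0.158 in replicate 2. In the combined list the Pearson value was -0.146 and the Spearman value -0.121, so the size depended on list and measure. Scores of the neighbours less than 1 kb apart differed by a median of 0.571 in replicate 1 and 0.525 in replicate 2. Between the replicates, the same region differed by a median of only 0.0755. Wider X regions had higher scores, and Spearman's rho of width and score was 0.799 in replicate 1 and 0.795 in replicate 2. These correlations are across regions of the same library, which are not independent.

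Coverage rose and fell several times along X without a trend from tip to base. Over the 22 complete windows of 1 Mb, the mean of the replicates ranged from 11.8% to 33.7% of bases, a 2.84-fold range. The SD between replicates was at most 1.44 percentage points in any of them. Neighbouring windows differed by a median of 9.38 points and by up to 19.6 points. Across the windows the Spearman correlation of coverage with order along X was -0.0198 (n = 22 windows of the same libraries, no test).

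The fullest windows were X 15000001 to 16000000, X 11000001 to 12000000 and X 16000001 to 17000000. The first was covered to 34.3% in replicate 1 and 33.0% in replicate 2. The second was covered to 31.9% and 31.4%, and the last to 32.4% and 30.3%. These windows held 50, 52 and 50 regions of the combined list.

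The emptiest windows were X 3000001 to 4000000, X 12000001 to 13000000 and X 14000001 to 15000000. They were covered to 12.0%, 12.2% and 14.5% in replicate 1 and to 11.7%, 11.9% and 13.8% in replicate 2. The largest step between neighbours, of 19.6 points, lay between X 11000001 to 12000000 and X 12000001 to 13000000, a pair of windows among the fullest and the emptiest. Windows with more coverage held more regions, with a Spearman correlation of 0.826 across the 22 windows, and to a lesser degree wider ones, with 0.570 for the median width.

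**Figure D4:**
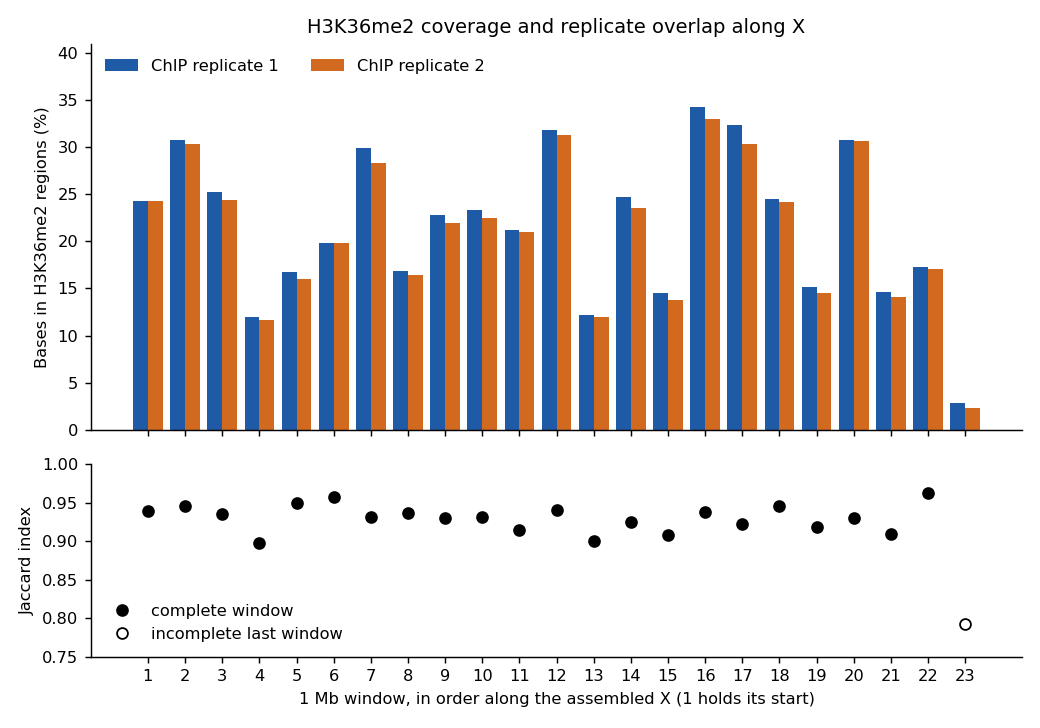
Bases of X in H3K36me2 regions (upper panel, %, bars, for each ChIP replicate) and the Jaccard index of the replicates (lower panel, points) in windows of 1 Mb in order along X; the last window, which is incomplete, has an open point. Coverage of the complete windows ranges from 11.8% to 33.7% on average, and their Jaccard index from 0.898 to 0.962.

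The median gap was shorter towards the base of X, while coverage was close to that of the rest. X was cut into 3 parts of equal length, a division chosen after the values were seen. The proximal part, from position 14948552, had a median gap of 2749 bp in replicate 1 and 2570 bp in replicate 2. The middle part had 5224 and 4154 bp and the distal part 4973 and 4792 bp. Coverage was 23.2% and 22.4% in the proximal part, 21.6% and 21.0% in the middle part and 21.7% and 21.2% in the distal part. The proximal part also held at least as many long gaps as the others, with 19 and 20 over 100 kb, compared with 18 and 18 in the middle and 17 and 17 in the distal part. No test was made between parts of the chromosome.

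Densely marked stretches were short and lay at many places along X. Of the 224 complete bins of 100 kb, 20 were covered over more than 50 percent in replicate 1 and 20 in replicate 2, and 16 of them in both. By coverage in the combined list, the fullest bins were X 15600001 to 15700000 and X 19500001 to 19600000, where the longest domains lay, with 89.4% and 88.9% in replicate 1 and 89.1% and 87.4% in replicate 2. They were followed by X 16200001 to 16300000, with 76.1% in replicate 1 and 72.1% in replicate 2. X 15700001 to 15800000 had 63.8% and 58.3%, and X 11700001 to 11800000 had 64.7% and 62.9%. The order is that of the combined list, and X 6100001 to 6200000, with 65.8% and 60.9%, was fuller than X 15700001 to 15800000 in both replicates. Of the 16 bins, 7 lay between positions 15600001 and 19600000, which is from bin 157 to bin 196 of the 224. Those limits are edges of dense bins and were picked with the values in view. No dense run was longer than 3 bins in either replicate. The count depends on the list, since 30 bins passed the same limit in the combined list. In replicate 1, 16 bins lay between 45 and 50 percent, just below the limit, and 10 lay between 50 and 55 percent, and in replicate 2 these were 12 and 13.

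Stretches of X without a called region recurred in both replicates. In 35 bins of 100 kb neither replicate had a region, and a further 2 bins were empty in replicate 1 only. No bin was empty in replicate 2 only. The combined list left 32 bins empty and placed narrow regions in some of the 35, such as X 4300001 to 4400000, covered to 1.46%. The longest gap in the combined list was X 21501133 to 21846057, of 344925 bp, and it measured 344940 bp in replicate 1 and 345054 bp in replicate 2. It was followed by X 20568481 to 20893771, of 325291 bp, and X 7236305 to 7555987, of 319683 bp. X 14171953 to 14474165 measured 302213 bp and X 21946171 to 22226891 measured 280721 bp. No region of either replicate lay wholly inside these 5 gaps, and the replicates reached into them by at most 40 bp at an edge. Of the 5, 3 lay in the most proximal 2 Mb of the 22.4 Mb of X, a limit picked with the values in view. Sequence that short reads cannot be placed on counts as empty here, and its share was not measured.

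Some X domains stood alone in long empty stretches. In the combined list, 9 X domains had more than 100 kb without a region on each side, and both replicates held regions in all 9. Most X domains were held by both, since of all 366 in that list replicate 1 lacked 22 and replicate 2 lacked 26. The limit of 100 kb was chosen after the values were seen. The longest of these islands, X 3990130 to 4038770, spanned 48641 bp with 4 regions in each list and a highest score of 1.57 in replicate 1 and 1.48 in replicate 2. The island X 21469768 to 21501132, a region of 31365 bp, lay between gaps of 205607 and 344925 bp and was covered to 99.99% in replicate 1 and 98.3% in replicate 2. Scores of the islands ranged widely, and they were not compared with those of other domains. The island X 3049044 to 3067696 held the region with the second highest score among X regions found in both replicates, and scored 2.89 in replicate 1 and 3.10 in replicate 2. The lowest island, X 20566018 to 20568480, scored 0.788 and 0.683. By the same limit replicate 1 had 10 islands on X, against 5 to 8 on each autosomal arm, and replicate 2 had 8 on X, against 6 to 9.

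The widest X region, X 6698668 to 6747380, measured 48713 bp in the combined list. It was a single region of 48616 bp in replicate 1, with a score of 2.19, and 2 regions in replicate 2, the wider of 34323 bp with a score of 2.33. X 10727250 to 10760316 followed the region of 39707 bp described above, with 33067 bp, and replicate 1 held it whole while replicate 2 held it in 2 pieces. X 1558550 to 1590462, of 31913 bp, was the other way round, with 2 regions in replicate 1 and 1 in replicate 2. The division of some wide regions therefore differed between the replicates, though that of the region of 39707 bp did not. In each replicate 97.3% or more of each of the 5 widest regions was covered. Regions that a replicate held in 3 pieces included X 9124338 to 9155000, with 3 in each replicate. X 16618488 to 16640998 and X 11496648 to 11515644 both had 2 in replicate 1 and 3 in replicate 2. X 13469740 to 13487180 had 1 in replicate 1 and 3 in replicate 2.

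The highest scores of X among regions found in both replicates did not belong to its widest regions. X 20262006 to 20285386, of 23381 bp, scored 2.97 in replicate 2, while replicate 1 held it as 2 regions that scored 3.17 and 0.692. X 3056786 to 3067696, of 10911 bp, scored 2.89 and 3.10, and X 13613468 to 13621506, of 8039 bp, scored 2.90 and 2.94. X 16283194 to 16297838 scored 2.84 and 2.82. X 11003192 to 11018328 scored 2.80 and 2.76. None of these was among the 5 widest regions, although width and score rose together over X as a whole.

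Most of the marked chromatin of X was found in both replicates. Both replicates overlapped 673 of the 790 combined X regions by at least 1 base, which is 85.2% (Wilson 95% interval 82.5 to 87.5, counting error only), against 85.0% of all combined regions. In the single lists, 726 of 760 X regions of replicate 1 met a region of replicate 2, or 95.5%, against 95% over the whole list. Of the replicate 2 regions on X, 772 of 792 met replicate 1, or 97.5%, against 97.5% over the whole list. Neither replicate overlapped 67 of the combined X regions, or 8.48%, against 8.07% of all combined regions. The shares on X were thus near those of the series. The Jaccard index, which sets the bases marked in both replicates against those marked in at least 1, was 0.932 on X, against 0.934 to 0.943 on the autosomal arms.

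Counted by bases, the overlap of the replicates varied little with position, and counted by regions it varied more. Over the complete 1 Mb windows the Jaccard index ranged from 0.898 to 0.962, with a median of 0.931. The lowest value belonged to the emptiest window, X 3000001 to 4000000, and the highest to X 21000001 to 22000000, the window before the incomplete last one. The share of combined regions that both replicates overlapped was 73.1% in X 18000001 to 19000000, or 19 of 26. It was 75% in X 20000001 to 21000000, or 18 of 24, and 76.9% in X 11000001 to 12000000, or 40 of 52. In X 11000001 to 12000000, 7 combined regions were found in neither replicate and 5 in only 1. The share was 100% in X 21000001 to 22000000, with 23 of 23. In the incomplete last window, from position 22000001 to the end, the index was 0.793, with coverage of 2.85% in replicate 1 and 2.33% in replicate 2. Replicate 1 covered more than replicate 2 in all 22 complete windows. The boundaries of paired regions differed by a median of 61.5 to 126 bp from window to window.

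Regions that 1 replicate lacked were narrow and low in score. The 34 X regions of replicate 1 without a partner measured 1552 bp and scored 0.598 at the median, against 5108 bp and 1.41 for its other X regions. The 20 of replicate 2 had 1500 bp and 0.599, against 4710 bp and 1.40. When X regions were ranked by score in 5 classes of equal number, the other replicate overlapped 78.3% of the lowest class of replicate 1 and 88.7% of that of replicate 2, and in the higher classes the shares were 99.3% to 100%. Of the unpartnered regions, 23 of 34 and 14 of 20 lay within 5 kb of a region of the other replicate. Being close to another region was common on X as a whole, where only 23.0% and 20.6% of regions had no neighbour within 5 kb in their own list. X 13078680 to 13080771, of replicate 2, stood out with a score of 1.33, the highest of all 54. It is also in the combined list, with a score of 0.782. Among those of replicate 1 the highest score was 0.882, at X 14987550 to 14990020.

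The widest X regions found only in replicate 1 were X 4967307 to 4970446, X 14987550 to 14990020, X 2367429 to 2369830, X 22412082 to 22414251 and X 1219062 to 1221147, of 2086 to 3140 bp. Those found only in replicate 2 were X 19990041 to 19992676, X 19147540 to 19150044, X 13078680 to 13080771, X 19985183 to 19987091 and X 1529828 to 1531542, of 1715 to 2636 bp. The combined list held a region at each of these 10 places, with scores of 0.382 to 0.782. A pair of the places found only in replicate 2 lay within 5 kb of each other near position 19990041.

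A one-to-one overlap joined 615 X regions, 80.9% of replicate 1 and 77.7% of replicate 2. Of the rest, 69 replicate 1 regions met more than 1 region of replicate 2 and 27 replicate 2 regions met more than 1 of replicate 1, so X was cut more finely in replicate 2. This was not particular to X. The autosomal arms pooled had 3124 regions in replicate 1 and 3179 in replicate 2, with median widths of 5146.5 and 4804 bp. The median shift of a boundary between paired regions was 86 bp, with 23 of 1230 shifts over 1 kb. Over the pairs the scores had a Pearson correlation of 0.977 and a Spearman correlation of 0.975, as a description of regions in the same libraries. The score was higher in replicate 1 in 340 of 615 pairs, and the region was wider there in 416 pairs.

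**Figure D5:**
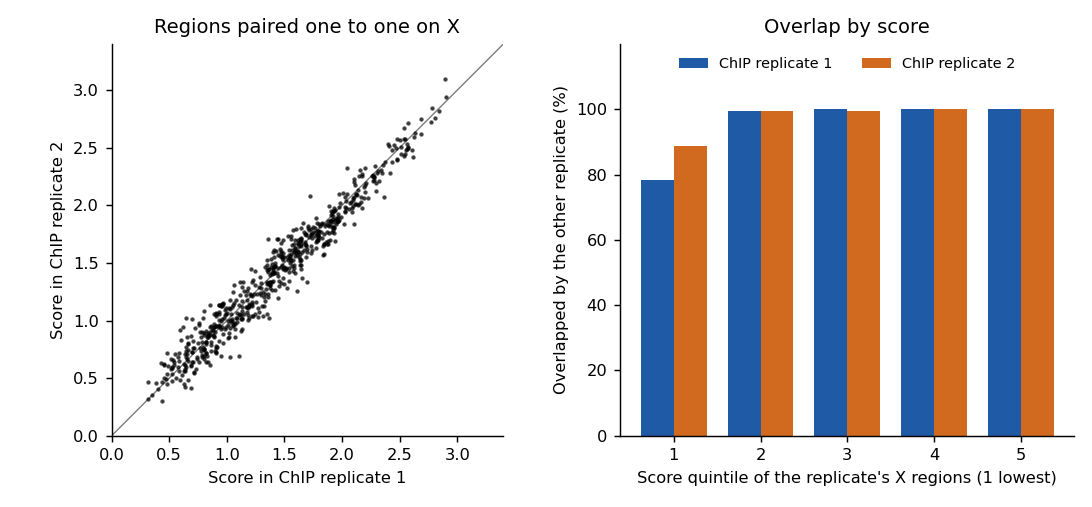
Left, scores of the 615 X regions paired one to one, replicate 1 on the x axis and replicate 2 on the y axis, with the line of equality. Right, share of X regions overlapped by the other replicate (y axis, %) in 5 score classes of equal number within each replicate, where the lowest class stands at 78.3% and 88.7% and the others at 99.3% to 100%.

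Some paired X regions differed in score by more than most. X 18773753 to 18777056 scored 1.10 in replicate 1 and 0.693 in replicate 2, where it was 2480 bp wide instead of 3304 bp. X 17093315 to 17096806 scored 1.70 and 1.34, and X 20050857 to 20053749 scored 1.61 and 1.26. In the other direction, X 16866337 to 16869237 scored 0.643 in replicate 1 and 1.02 in replicate 2. X 19096790 to 19104476 scored 1.72 and 2.08, and X 15498522 to 15502344 scored 1.36 and 1.71. The positions are those of replicate 1. Paired regions overlap by definition, so their overlap says nothing more here. The SD of the score difference over the 615 pairs was 0.12.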

How the data were processed

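Per the submitters' processing notes, reads were aligned with Bowtie 0.12.7, and per the file headers coordinates are on FlyBase release 5. Per the labels, each ChIP library was set against the input of the other replicate number. The authors deposited a list of enriched regions per ChIP library and a combined list, each region with a score. For the deposited score, the sources used here do not give the scale, log base or normalization, the peak caller and its cutoff, or how replicates were combined. Depth is unknown, and no interval or test that needs it is given. The combined list is the authors' value, with no SD or n.

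Positions were used as deposited, 1-based. Gaps are the bases between neighbouring regions, domains join regions across gaps of at most 5 kb, bins (100 kb) are complete ones, regions were put in a window by their midpoint, and overlap means at least 1 shared base. Values on X were compared with the autosomal arms 2L, 2R, 3L and 3R within each replicate by an exact two-sided sign-flip permutation test over the 2 replicates, which cannot go below p = 0.5. The counting functions were tested on a simulated list. Regions were named by rule: on X the 5 widest, 5 highest scores in both replicates, 5 longest gaps, 5 longest domains, 5 fullest bins, 3 fullest and 3 emptiest windows, 3 in the most pieces, 3 pairs with the largest score difference in each direction, and the 5 widest that each replicate's partner lacks. Islands, the division of X into parts and any other region named were picked with their values in view. The members and lists were chosen with earlier results of these data known. Alternatives are given in the closing section. No annotation or sequence of release 5 was used, and the gene table at hand belongs to release 6. Calculations used Python 3.11.15, numpy 2.4.6, pandas 2.3.3, scipy 1.17.1 and matplotlib 3.10.9.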

Additional observations from a re-analysis of the deposited data

How the results depend on the processing

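Against the 4 autosomal arms pooled, the median gap on X stayed shorter and regions per domain stayed higher under all alternatives run. The differences were -3746 to -1101 bp and 0.0969 to 0.324 regions. Single arms were compared with X only in the lists as deposited, with domains joined across gaps of up to 5 kb. Both contrasts of bins with the autosomal arms turned under some alternatives, and contrasts of widths, gap variation and regions without a neighbour were computed only per list. The difference in empty bins turned from 0.942 to -1.74 percentage points when only regions scoring above the median were kept. The difference in bins covered over 50 percent turned from -0.605 to 0.559 points when regions less than 1 kb apart were merged, to 2.30 in the combined list and to 1.03 in bins of 200 kb; the cause was not tested. With only the regions scoring above the median of their whole list, by construction fewer, X held 426 regions over 16.8% of its length. The median gap was then 13599 bp, with 25% of bins empty, 3.35% covered over 50 percent and a longest gap of 511.1 kb. Of the combined regions so chosen 91.4% lay in both replicates, with a Jaccard index of 0.906 and a score correlation of 0.9495. Merging gave a median gap of 8860 bp, 10.7% of bins over 50 percent, 89.8% of regions in both replicates, an index of 0.937 and a correlation of 0.974. The combined list gave 23.4% coverage, 14.3% empty bins and 13.4% over 50 percent. Empty bins were 33.9% at 50 kb and 4.02% at 200 kb, and bins over 50 percent were 14.3% and 4.46%. Regions in both replicates fell to 62.0% when 90 percent of the region had to be covered and to 82.2% with reciprocal overlap of 50 percent, which left the score correlation at 0.977. With a single replicate the values were those of the other one, such as 760 or 792 regions. No paired analysis was possible because the groups that share replicate numbers are the ChIP and input libraries, and inputs were not analysed here; X and the autosomal arms were compared within each replicate throughout. Depth is unknown and its effect was not tested.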

Other observations

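Coverage of X was weakly alike from one 100 kb bin to the next. The correlation of a bin with its neighbour was 0.215 in replicate 1 and 0.216 in replicate 2, and at 3 bins' distance it was -0.0144 and -0.0164. The bins of a replicate share a library, so these values carry no test.

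In the combined list all 1580 region boundaries on X lay at even positions. In the replicates 757 of 1520 and 822 of 1584 did. The 67 combined X regions found in neither replicate made up 8.48% of the X list, against 8.07% of the whole list, and 66 of them were under 2.5 kb wide. Their median score was 0.411, yet they included the highest score of any combined X region, 3.302 at X 4818792 to 4819796, a region of 1005 bp; among regions in both replicates the highest was 2.96. The first of them, X 1354 to 3008, was the region nearest to the tip.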
